A study of Rattus norvegicus with 8 samples.

Results

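Pericytes and smooth muscle cells wrap around blood vessels, and 10 genes that mark them were followed in the rat Achilles tendon: *Acta2*, *Myh11*, *Tagln*, *Cnn1*, *Lmod1*, *Rgs5*, *Pdgfrb*, *Notch3*, *Mcam*, and *Myocd*. Chosen by gene symbol, they are 10 of the 32883 genes in the count table, and all 10 passed the filter on low counts among the 13937 genes tested. All 8 animals were male wild-type SD rats, 8 to 10 weeks old. The right tendons of 4 were taken 12 h after a single uphill treadmill run of 1 h (12 h p.r.), and those of the other 4, which rested in their cages (NC), were taken at the same time. Each library was polyadenylate mRNA of 1 whole tendon, so that vessel wall, tenocytes, and any adhering tissue were measured together. The comparison asks whether expression in the tendon still differed from rest 12 h after running.

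Pericytes sit on capillaries within the basement membrane, and smooth muscle cells form the wall of arterioles and veins. Pericytes are recruited by endothelial PDGF-B acting on the receptor PDGFRβ, and NOTCH3 signaling keeps both cell types in place and mature. In smooth muscle, the coactivator myocardin binds serum response factor (SRF) on a DNA element called the CArG box and turns on the genes of the contractile apparatus. The tendon itself is sparsely vascular. *Acta2*, which encodes α-smooth muscle actin (α-SMA), is not exclusive to vessels, because activated fibroblasts also make it.

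RefSeq promoter sequences (build GRCr8) were at hand for 4 of the 10 genes, *Acta2*, *Cnn1*, *Rgs5*, and *Notch3*. The 250 bases before the start site are shown for *Acta2* (chr1:241172504-241172753, minus strand), *Cnn1* (chr8:28908187-28908436, plus strand), and *Rgs5* (chr13:84380827-84381076, plus strand), since the first pair encode contractile proteins and the last a pericyte marker that varied differently from rat to rat. Capitals mark CArG-like boxes, in which a single one of the central A or T letters is C or G.
Acta2: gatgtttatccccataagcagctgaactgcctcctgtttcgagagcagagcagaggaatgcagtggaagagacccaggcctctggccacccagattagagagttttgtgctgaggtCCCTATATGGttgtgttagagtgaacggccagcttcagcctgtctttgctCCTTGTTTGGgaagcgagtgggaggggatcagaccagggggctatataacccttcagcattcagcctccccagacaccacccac
Cnn1: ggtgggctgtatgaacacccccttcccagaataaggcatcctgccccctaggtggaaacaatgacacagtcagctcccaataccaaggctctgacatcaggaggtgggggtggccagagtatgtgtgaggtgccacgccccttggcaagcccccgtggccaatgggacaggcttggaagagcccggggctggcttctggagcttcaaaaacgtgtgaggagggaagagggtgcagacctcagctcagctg
Rgs5: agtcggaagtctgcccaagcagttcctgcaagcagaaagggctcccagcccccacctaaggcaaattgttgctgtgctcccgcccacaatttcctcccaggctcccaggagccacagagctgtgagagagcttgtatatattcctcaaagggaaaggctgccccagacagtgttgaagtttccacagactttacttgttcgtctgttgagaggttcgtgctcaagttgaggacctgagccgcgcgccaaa
The *Acta2* window held 2 CArG-like boxes, 134 to 125 and 84 to 75 bases before the start, and 6.84% of 33469 rat promoter windows of this length held at least 1 on either strand. The strict CArG box, found in 1.5% of the windows, was in none of the 4, and the looser form was searched after this had been seen. *Acta2* also held an MCAT element (CATTCC, on the minus strand 196 to 191 bases before the start; 12.1% of windows) and the letters TGGGAA 77 to 72 bases before the start, which overlap the second CArG-like box. TGGGAA, the core bound by the Notch partner RBPJ, was in 22.1% of windows and also in that of *Cnn1* (minus strand, 228 to 223 bases before the start). The *Rgs5* and *Notch3* windows held none of these letters, and none of the 4 held TATAAA (12.9% of windows). These matches are descriptions of sequence on GRCr8, whereas the reads were aligned to Rnor_6.0.

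The reads counted per rat ran from 7350509 to 12951397, and the 10 genes took 0.228 to 0.288% of them in the 12 h p.r. rats and 0.194 to 0.271% in the NC rats. The library of 12 h p.r. rat 3 stood apart: its 9 tested skeletal muscle markers summed to 56920 CPM (reads scaled to a common library size), against 2033 to 10520 CPM in the NC rats and 2191 to 3023 CPM in the other running rats, and its tenocyte markers to 13930 CPM, against 24020 to 43810 CPM. Values without this rat are therefore given for each of the 10 genes and for each list below, and for other genes where the sign turned. Taken as a sum, tenocyte markers were abundant in every library, with *Col1a1* the largest part (11090 CPM in 12 h p.r. rat 3). Single tenocyte markers could be low, with *Mkx* at 5.61 to 16.3 CPM. Endothelial markers summed to 1792 to 2215 CPM, whereas the endothelial marker *Pecam1* was not among the genes used here.

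The mural genes covered nearly the whole range of expression in the tendon. In FPKM, which the authors divided by gene length so that genes can be set beside each other, *Tagln* (transgelin, an actin-bundling protein) had the highest median over the 8 rats, 403 FPKM with a range of 354 to 539. *Acta2* followed with 368 FPKM (309 to 467) and *Rgs5*, an inhibitor of G-protein signaling in pericytes, with 340 FPKM (299 to 438.5). Of the genes tested, 98.5, 98.4, and 98.3% lay below these medians.
The adhesion molecule gene *Mcam* (CD146) had a median of 100.1 FPKM (82.5 to 125), and *Myh11*, the smooth muscle myosin heavy chain, 56.2 FPKM (40.7 to 76.0). *Notch3* (26.2 FPKM) and *Pdgfrb* (25.0 FPKM) were at similar levels, above *Cnn1* (calponin, 15.9 FPKM) and *Lmod1* (the actin filament nucleator leiomodin, 9.45 FPKM). *Myocd*, which encodes myocardin, was lowest at 0.595 FPKM (0.458 to 1.22), with 4.13% of the tested genes below it.
The order was the same in all 8 rats for most neighbours. *Acta2* exceeded *Rgs5* in 6 of 8 rats, *Notch3* exceeded *Pdgfrb* in 6, and *Pdgfrb* exceeded *Cnn1* in 6, so these neighbours were not separated beyond the spread between rats.

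**Figure D1:**
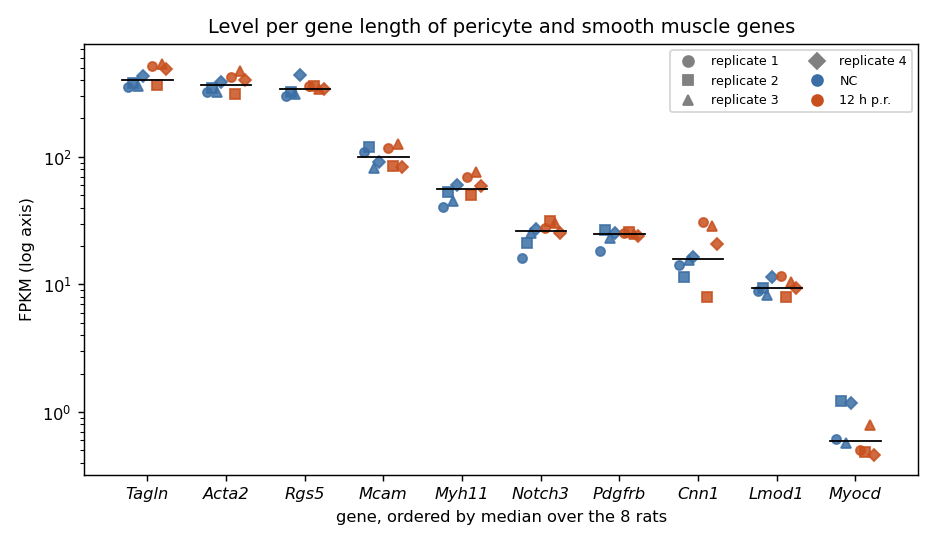
FPKM (log axis) of the 10 genes, ordered by their median over the 8 rats (black line), with a point for each rat, blue for NC and orange for 12 h p.r., and a symbol for each replicate number. The medians run from 403 FPKM for *Tagln* to 0.595 FPKM for *Myocd*, and *Cnn1* is spread most among the running rats.

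None of the 10 genes passed the test at 12 h p.r. against NC. With the quasi-likelihood test of edgeR and Benjamini-Hochberg adjustment over 13937 genes, the smallest adjusted p-value among them was 0.524 (*Tagln*), and 0.00718% of all genes tested (1 gene, lower at 12 h p.r.) were called. By the Wald test of DESeq2, 0.685% of the genes with an adjusted p-value were called and again none of the 10, with a smallest adjusted p-value of 0.405. At an unadjusted p-value under 0.05, edgeR had 1 of the 10 (*Tagln*, higher) and DESeq2 3 (*Tagln*, *Myh11*, and *Notch3*, all higher). The shares over all genes were 9.51% of 13937 by edgeR and 6.5% of 20945 by DESeq2. The DESeq2 share includes genes with low counts that the edgeR filter left out, so the shares are not directly comparable. The edgeR share was made up of 5.44% higher and 4.08% lower.
The groups overlapped in each of the 10 genes, while without overlap 3.52% of all genes lay higher in the running rats and 2.55% lay lower. Of the point estimates, 9 were above 0, with a median log2 fold change of 0.16, beside 54.2% and a median of 0.02 over all genes tested. In RNA of whole tissue, fewer cells of a type and less RNA per cell cannot be told apart. Both groups were killed at the same time, and nothing in the sources used here says whether rats shared a litter. The p-values set the difference between the groups against the variation among these 8 rats.

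The actin and myosin genes of the contractile apparatus were, on average, higher in the running rats, but none passed the test and rats of a group differed widely. *Acta2* (ENSRNOG00000058039) was at 600.0, 433, 652, and 565 CPM in 12 h p.r. rats 1 to 4 and at 450, 488, 452, and 539 CPM in NC rats 1 to 4. Running rats 1, 3, and 4 lay above every NC rat and running rat 2 below every one. The means were 563 ± 93.5 CPM at 12 h p.r. and 482 ± 41.7 CPM in NC (SD, n = 4 each), a log2 fold change of 0.22 (SE 0.15, 95% interval −0.11 to 0.56, edgeR adjusted p = 0.671, exact permutation p = 0.2).
*Tagln* (ENSRNOG00000017628) followed *Acta2* closely from rat to rat. It was at 652, 461, 678, and 620 CPM in the running rats and at 444, 476, 453, and 537 CPM in the NC rats. Again 3 running rats were above all NC rats, and running rat 2 lay among the NC rats. The log2 fold change was 0.34 (SE 0.15, 95% interval 0.001683 to 0.67, edgeR unadjusted p = 0.0491, adjusted p = 0.524, exact permutation p = 0.0857, where the smallest p that 4 against 4 rats allows is 0.0286).
*Myh11* (ENSRNOG00000057880) was at 475, 338, 511, and 398 CPM after running and at 273, 357, 305, and 406 CPM at rest. Running rats 1 and 3 exceeded all others, and NC rats 1 and 3 were the lowest. Its log2 fold change was 0.36 (SE 0.17, 95% interval −0.03 to 0.75, edgeR adjusted p = 0.553, exact permutation p = 0.143). Without running rat 3, the estimates for *Acta2*, *Tagln*, and *Myh11* were 0.14, 0.27, and 0.27.
*Cnn1* (ENSRNOG00000027736), whose product calponin binds actin and damps the myosin ATPase, had the widest spread of the 10 genes. It was at 46.7, 12.1, 43.2, and 31.1 CPM in the running rats and at 21.2, 17.3, 23.4, and 24.6 CPM in the NC rats. Running rat 2 was the lowest of all 8 and the other running rats were the highest, so the highest rat was 3.86 times the lowest. The means were 33.3 ± 15.6 and 21.6 ± 3.20 CPM, and the log2 fold change was 0.62 (SE 0.35, 95% interval −0.17 to 1.41, edgeR adjusted p = 0.609, exact permutation p = 0.343). Leaving out running rat 2 gave 0.89 and leaving out running rat 1 gave 0.41, with edgeR adjusted p-values of 0.337 and 0.767.
*Lmod1* (ENSRNOG00000051548) was the contractile gene with the smallest difference. It was at 52.8, 36.2, 47.2, and 42.8 CPM in the running rats and at 39.9, 42.7, 37.6, and 51.2 CPM in the NC rats, where the groups were intermixed. The log2 fold change was 0.06 (SE 0.14, 95% interval −0.25 to 0.38, edgeR adjusted p = 0.913), or a fold between 0.842 and 1.297. Without running rat 3, the estimates were 0.47 for *Cnn1* and 0.04 for *Lmod1*.

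**Figure D2:**
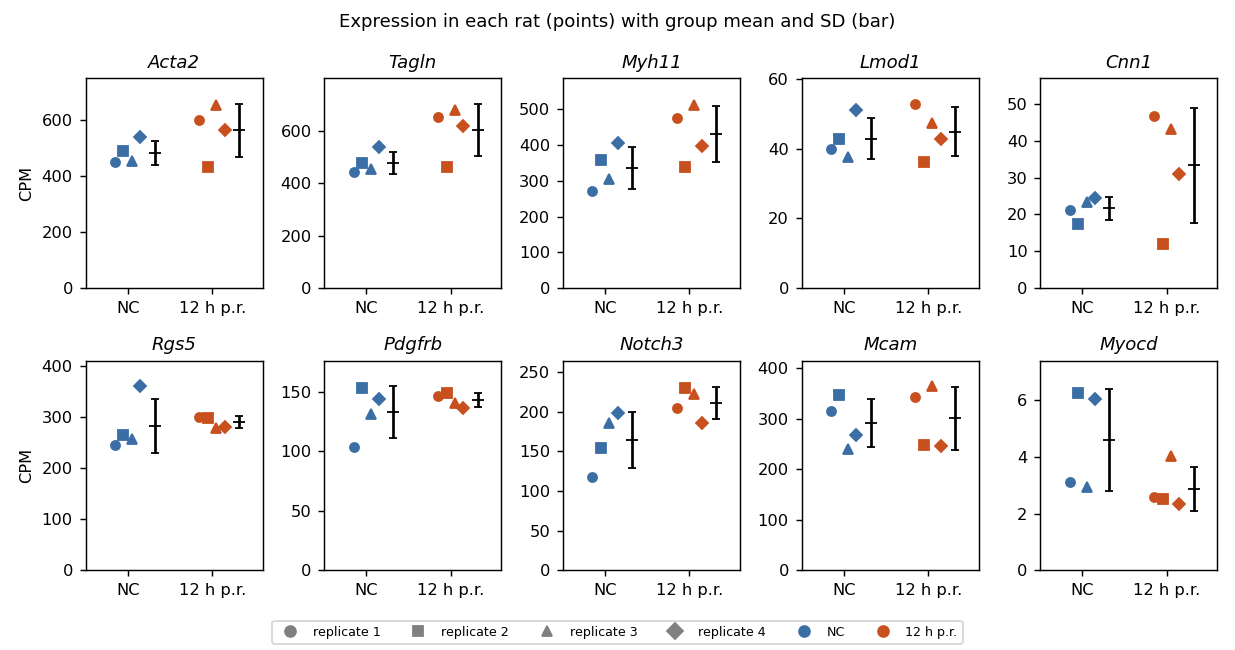
CPM of each gene in each rat, with an axis from 0 for every gene, blue points for NC and orange points for 12 h p.r., symbols for replicate numbers, and a bar with the mean and SD of each group (n = 4). The square of running rat 2 lies apart from the other running rats in *Acta2*, *Tagln*, and *Cnn1*, and the running rats lie close together in *Rgs5* and *Pdgfrb*.

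Of the pericyte genes, *Rgs5*, *Pdgfrb*, and *Mcam* had nearly the same mean in both groups, and *Notch3* a higher one in the running rats that did not pass the test. *Rgs5* (ENSRNOG00000002730) was at 300.4, 298, 278, and 280.2 CPM after running and at 245, 264, 256, and 359.5 CPM at rest. All running rats lay within the range of the NC rats, between NC rats 2 and 4. The log2 fold change was 0.04 (SE 0.14, 95% interval −0.27 to 0.35, edgeR adjusted p = 0.945).
*Pdgfrb* (ENSRNOG00000018461), the receptor through which PDGF-B holds pericytes on the endothelium, was at 147, 149, 141, and 136 CPM in the running rats and at 104, 154, 132, and 144 CPM in the NC rats. NC rat 1 was the lowest and NC rat 2 the highest of the 8. The log2 fold change was 0.10 (SE 0.13, 95% interval −0.18 to 0.39, edgeR adjusted p = 0.824). For both genes the running rats were the more alike: the coefficient of variation was 4.05% at 12 h p.r. and 18.8% in NC for *Rgs5*, and 3.997 and 16.2% for *Pdgfrb*. The difference in spread was not tested. Without running rat 3, the estimates were 0.06 for *Rgs5* and 0.11 for *Pdgfrb*.
*Notch3* (ENSRNOG00000004346), the Notch receptor of mural cells, was at 205, 229.6, 223, and 186 CPM after running and at 118, 155, 186, and 198 CPM at rest. Running rats 1 to 3 were above every NC rat, and NC rat 1 was the lowest. The means were 211 ± 19.6 and 164 ± 35.9 CPM, with a log2 fold change of 0.36 (SE 0.16, 95% interval −0.01 to 0.73, edgeR adjusted p = 0.535, exact permutation p = 0.0857). The estimate was 0.33 without running rat 3 and 0.23 without NC rat 1.
*Mcam* (ENSRNOG00000007726), a cell surface adhesion molecule that endothelial cells carry too, was at 344, 249, 365, and 245 CPM in the running rats and at 315, 346, 240.5, and 268 CPM in the NC rats. Both groups held high and low rats. The log2 fold change was 0.04 (SE 0.18, 95% interval −0.36 to 0.44, edgeR adjusted p = 0.96) and turned to −0.07 without running rat 3.

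*Myocd* (ENSRNOG00000003669) was the only one of the 10 genes with a lower mean in the running rats. It was at 2.59, 2.50, 4.05, and 2.35 CPM after running and at 3.13, 6.26, 2.95, and 6.03 CPM at rest. NC rats 2 and 4 were about as high as each other and well above all others, and running rats 1, 2, and 4 were below every NC rat. The means were 2.87 ± 0.79 and 4.59 ± 1.80 CPM, a log2 fold change of −0.67 (SE 0.33, 95% interval −1.41 to 0.08, edgeR adjusted p = 0.565, exact permutation p = 0.171).
These values rest on 19 to 34 reads per running rat and 39 to 71 per NC rat, 298 in all, whereas *Acta2* had 41349. The estimate was −0.88 without running rat 3 and −0.49 without NC rat 2. The coefficient of variation was 27.5% at 12 h p.r. and 39.2% in NC. No difference in *Myocd* passed the test, and the part of depth in this was not tested.

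**Figure D3:**
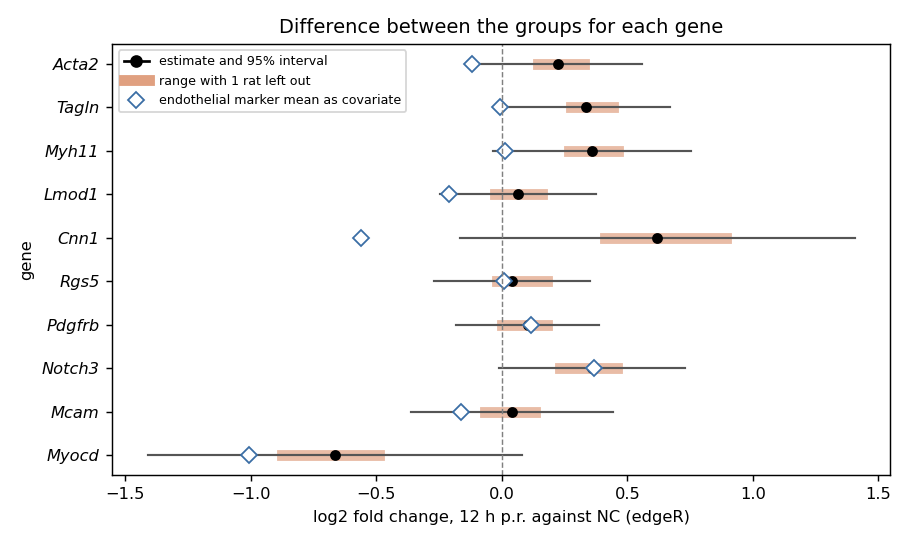
Log2 fold change of each gene, 12 h p.r. against NC, from edgeR (black point) with its 95% interval (line), the range of estimates with 1 rat left out (orange band), and the estimate with the mean of the endothelial markers as a covariate (open diamond). The intervals of all genes but *Tagln* include 0, and the diamonds lie below 0 for all genes but *Myh11*, *Rgs5*, *Pdgfrb*, and *Notch3*.

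*Acta2*, *Tagln*, and *Myh11* varied together from rat to rat. For each gene, the log2 CPM of the 8 rats was centred on its mean and set against the profile of the other 13936 genes tested, and likeness was taken as the root mean square (RMS) difference. Nearest to *Acta2* were *Myl9*, the smooth muscle myosin regulatory light chain (RMS 0.0464), *F11r*, a junctional adhesion molecule (0.0554), and *Tagln* (0.0618), where *Acta2* itself varied with an RMS of 0.20. Nearest to *Tagln* were *Acta2* (0.0618), *Bcam* (0.0761), and *F11r* (0.0839).
*Myh11* was nearest to *Cdh5*, the vascular endothelial cadherin (0.0786), then to *Pcdh1* (0.0792) and *Tagln* (0.109). *Lmod1* was nearest to *Eid2b*, *Agrn*, and *Zfp964*, with *Acta2* in place 43 (0.119). *Cnn1* was nearest to *Slc43a3*, *Ccdc65*, and *Brinp1* (0.217 to 0.251), and its first fellow contractile gene, *Tagln*, stood in place 170 (0.41). *Cnn1* itself varied with an RMS of 0.597 and *Tagln* with 0.236. Because the profiles were not scaled, a wider swing in the same rats also counts as a difference here.
The pericyte genes did not follow each other in this way. *Rgs5* was nearest to *Coq6*, *Zcchc8*, and *Afdn*, and *Pdgfrb* to *Pcsk7*, *Kat6b*, and *Tsen54*, while *Pdgfrb* was in place 691 for *Rgs5* and *Rgs5* in place 687 for *Pdgfrb*. *Notch3* was nearest to *Phactr2*, *Arhgef17*, and *AABR07001926.3*, with *Pdgfrb* in place 266. *Mcam* had *Mrpl16* and *Pecr* among its nearest, and *Myocd* was nearest to *Scn3b*, *AC120807.1*, and *Atp8b1*, where the closest mural gene was in place 1055 for *Mcam* (*Lmod1*) and in place 2261 for *Myocd* (*Mcam*). Profiles over 8 rats share the libraries and their scaling, and the ranks are descriptions.
Seen by rat, running rat 1 was among the highest 2 in 5 of the 5 contractile genes and running rat 3 in 4 of 5. Running rat 2 was the lowest of all in *Acta2*, *Cnn1*, and *Lmod1*, and yet the highest in *Notch3*. NC rat 1 was the lowest in *Myh11*, *Tagln*, *Rgs5*, *Pdgfrb*, and *Notch3*, and NC rat 4 the highest in *Rgs5*.

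**Figure D4:**
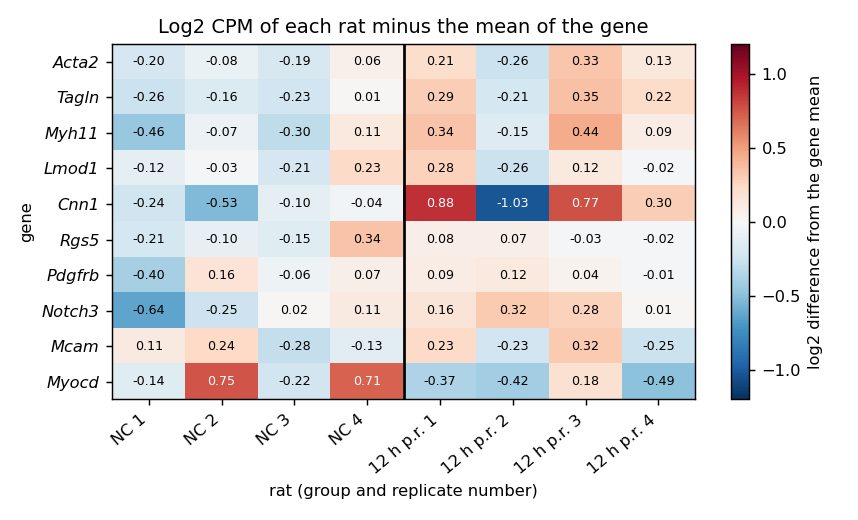
Log2 CPM of each gene in each rat minus the mean of that gene over the 8 rats, with NC rats to the left of the black line and 12 h p.r. rats to the right, red for above and blue for below the mean. *Acta2*, *Tagln*, and *Myh11* share a pattern in which running rat 2 is below the mean, while *Myocd* is high in NC rats 2 and 4.

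Differences between genes within a rat depend on library scaling only through the 0.5 added to each CPM, which weighs most on *Myocd*. Gene length adds nearly the same amount in every rat. Of the 45 pairs among the 10 genes, 6 had log2 CPM differences that did not overlap between the groups. Of these, 3 involved *Myocd*: *Myh11* minus *Myocd* was 6.81 to 7.27 in the running rats and 5.73 to 6.47 in the NC rats, and *Acta2* and *Tagln* were likewise higher relative to *Myocd*, by 0.76 and 0.87 on average. Of all genes, 5.96% were higher relative to *Myocd* without overlap.
The other 3 were smaller. *Acta2* minus *Tagln* was −0.13 to −0.06 after running and −0.003364 to 0.04 at rest, so *Acta2* was lower relative to *Tagln*, with a mean difference of −0.11, whereas 8.34% of all genes were lower relative to *Tagln* without overlap. *Myh11* minus *Lmod1* was 3.16 to 3.42 after running against 2.76 to 3.05 at rest, and *Tagln* minus *Lmod1* was 3.61 to 3.84 against 3.38 to 3.57. Of all genes, 0.696% were higher relative to *Lmod1* without overlap. No background share was computed for the count of 6 of 45. These 6 pairs were picked out after all 45 had been seen and are given without a test.

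Beyond the 10 genes, 15 other genes of the smooth muscle contractile apparatus and cytoskeleton gave 11 positive and 4 negative log2 fold changes, with a median of 0.20, and none passed the edgeR test. This balance rested on running rat 3, since without it 6 were positive and 9 negative, with a median of −0.03. Of the 15, 4 had an unadjusted p-value under 0.05, all higher at 12 h p.r., where the share over all genes in this direction was 5.44%. *Actg2*, enteric smooth muscle γ-actin, was at 55.1, 16.3, 39.4, and 31.2 CPM after running and at 15.3, 14.96, 14.05, and 15.97 CPM at rest. Every running rat was above every NC rat, but running rat 2 only just, as in *Acta2* and *Cnn1*, where it was the lowest. The share of all genes higher without overlap was 3.52%. The log2 fold change of *Actg2* was 1.23 (SE 0.30, edgeR adjusted p = 0.402), and DESeq2 gave it an adjusted p-value of 0.0187.
*Ppp1r14a*, the myosin phosphatase inhibitor CPI-17, was also without overlap (log2 fold change 0.33), and *Smtn* (smoothelin, 0.37) and *Kcnmb1* (the β subunit of the BK channel, 0.49) had overlapping groups. The most negative was *Vcl* (vinculin) at −0.19, and *Myl9*, the closest companion of *Acta2*, was at 0.20. *Tpm1* and *Des* are shared with skeletal muscle, and *Tpm1* (1.23, SE 0.89) reached 7694 CPM in running rat 3. Without that rat, *Tpm1* was at −0.62, *Des* went from 0.83 to −0.37, *Tpm2* from 0.06 to −0.62, and *Synpo2* from 0.25 to −0.45, whereas *Actg2* stayed at 1.18. The genes *Acta2*, *Actg2*, and the skeletal *Acta1* (15730 CPM in running rat 3) encode near-identical actins, and how reads that match more than 1 gene were counted is not given in the sources used here, so reads shared among them are uncertain.
Among 12 other pericyte genes, 8 estimates were positive and 4 negative, with a median of 0.07, none past the edgeR test, and 2 at an unadjusted p-value under 0.05 (*Steap4* and *Ndufa4l2*), where 9.51% of all genes were. Leaving out running rat 3 gave 7 positive and 5 negative, with a median of 0.06. *Cspg4* (the proteoglycan NG2) was at 0.07, and *Kcnj8* and *Abcc9*, the subunits of the pericyte potassium channel, at 0.30 and 0.08 (0.35 and −0.16 without running rat 3). *Steap4*, a metalloreductase, was at 175, 176, 167, and 161 CPM after running and at 231, 216, 243, and 237 CPM at rest, with every running rat below every NC rat, as in 2.55% of all genes. Its log2 fold change was −0.45 (SE 0.09, edgeR unadjusted p = 0.00064, adjusted p = 0.385), and DESeq2 gave an adjusted p-value of 1.8e-05. *Ndufa4l2*, a mitochondrial protein gene induced by hypoxia, had the largest positive value, 0.65, with overlapping groups (edgeR adjusted p = 0.433).

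The genes of SRF, its partners, and its targets had values on both sides of 0. Of 11 tested, 6 estimates were positive and 5 negative (median 0.06), none passed the edgeR test, and 4 had an unadjusted p-value under 0.05, beside 9.51% of all genes. With running rat 3 left out, 5 were positive and 6 negative, with a median of −0.08. *Srf* itself was at 0.10 (−0.08 without running rat 3) and *Mrtfa*, the actin-sensing coactivator, at 0.27. The targets and partners *Ccn2* (−0.90), *Fhl2* (−0.82), and *Klf4* (−0.53), the last a repressor of the contractile program, were lower at 12 h p.r. without overlap between the groups, where 2.55% of all genes were. *Ccn1* had the largest positive value (0.65) and *Foxo4*, the fourth of these, was at 0.57 (0.23 without running rat 3).
The PDGF ligands, the other PDGF receptor, and the Notch ligands, receptors, and targets gave 7 positive and 7 negative estimates of 14, with a median of −0.02. None passed the edgeR test, and *Hes1* alone had an unadjusted p-value under 0.05, beside 9.51% of all genes. Leaving out running rat 3 gave 6 positive and 8 negative, with a median of −0.005202. *Pdgfb*, the ligand that recruits pericytes, was at 0.03 (−0.009741 without running rat 3) and the Notch ligand gene *Jag1* at −0.14. The Notch target *Heyl*, a target in mural cells, had the largest positive value, 0.36 (adjusted p = 0.553 by edgeR), close to that of *Notch3*. *Hes1*, another Notch target, was at −0.31 and lower in every running rat than in every NC rat (edgeR adjusted p = 0.433), as 2.55% of all genes were.
Among 7 genes of activated fibroblasts other than *Acta2*, 6 estimates were negative and 1 positive (*Tgfb1*, 0.23), with a median of −0.36 and none past the edgeR test. Without running rat 3, 4 were negative and 3 positive (*Tnc*, *Fap*, and *Tgfb1*), with a median of −0.17. *Postn*, the matrix protein periostin, was the most negative at −0.82, with overlapping groups. It was the single gene of this list with an unadjusted p-value under 0.05, beside 9.51% of all genes.

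**Figure D5:**
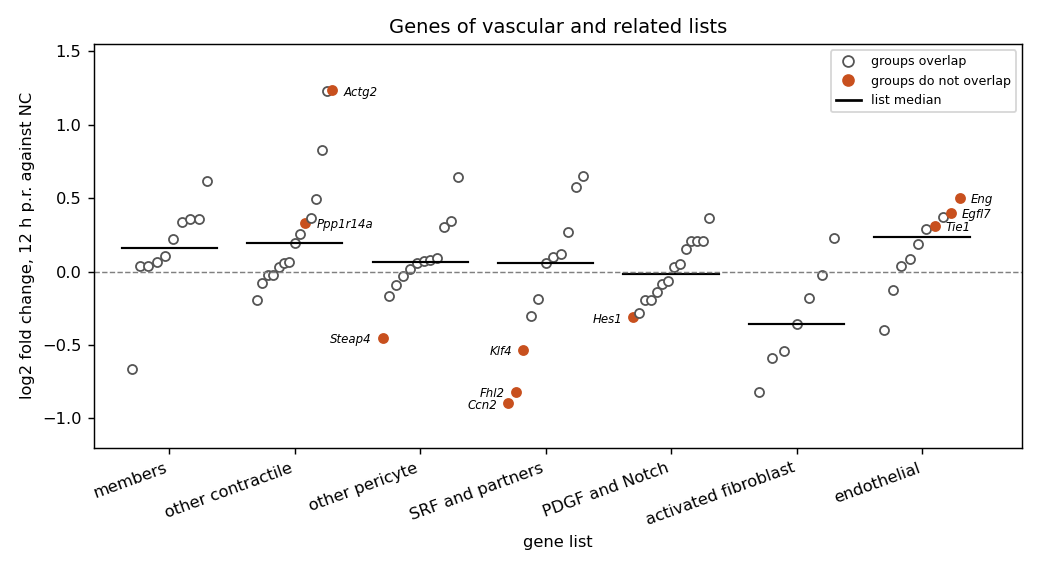
Log2 fold change (edgeR, 12 h p.r. against NC) of each tested gene of 7 lists, where filled orange points are genes whose groups of 4 rats do not overlap, open points are genes whose groups overlap, and black lines are list medians. The 10 mural genes and the other contractile genes have medians of 0.16 and 0.20 and the activated fibroblast genes −0.36 with all 8 rats (0.13, −0.03, and −0.17 without running rat 3), and no gene shown had an edgeR adjusted p-value under 0.05.

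On average, endothelial markers were lower in running rat 2 than in the other running rats, as several contractile genes were. *Notch3* and *Rgs5* were not. Of 10 tested, 8 estimates were positive and 2 negative, with a median of 0.24 (0.18 without running rat 3). *Eng* (endoglin, 0.50), *Egfl7* (0.40), and *Tie1* (0.31) were higher in every running rat than in every NC rat, and *Emcn* (endomucin) was the most negative at −0.40, with overlapping groups. None passed the edgeR test, and these 4 had an unadjusted p-value under 0.05, beside 9.51% of all genes, and 3.52% of all genes were higher without overlap, while DESeq2 gave adjusted p-values of 0.00847 for *Eng* and 0.0150 for *Egfl7*.
The mean log2 level of the endothelial markers was 7.63, 7.40, 7.69, and 7.65 in running rats 1 to 4 and 7.40, 7.42, 7.42, and 7.48 in NC rats 1 to 4. Running rat 2, the low rat of the contractile genes, was thus level with the NC rats, and the other running rats were above them. Taken relative to this mean within each rat, the difference between the groups was 0.05 for *Acta2*, 0.16 for *Tagln*, 0.19 for *Myh11*, 0.29 for *Cnn1*, 0.22 for *Notch3*, −0.11 for *Rgs5*, −0.05 for *Pdgfrb*, −0.13 for *Mcam*, −0.10 for *Lmod1*, and −0.71 for *Myocd*. With the endothelial mean as a covariate in the edgeR fit, the log2 fold changes were −0.12 for *Acta2*, −0.01 for *Tagln*, 0.01 for *Myh11*, and −0.56 for *Cnn1*. They were 0.37 for *Notch3* and −1.01 for *Myocd*, and no adjusted p-value was under 0.05. Since running rats 1, 3, and 4 lay above every NC rat in this covariate, it was partly aligned with group. The fit can therefore separate the covariate and the group only poorly. The part of the amount of vessel in each sample in these values was not tested.
Other tissues also differed between libraries. The skeletal muscle list had a median of 1.49 (largest *Actn3*, 2.20, most negative *Myh7*, −1.77), with running rat 3 far above the rest. Without that rat all 9 genes were negative, with a median of −1.18 and *Actn3* at −0.88. With the mean of this list as a covariate *Cnn1* was at 0.57 and *Myocd* at −0.68. Tenocyte markers had a median of 0.27, with *Scx* (0.62), *Mkx* (0.78), and *Thbs4* (0.56) at unadjusted p-values under 0.05 by edgeR and *Col1a1* the most negative (−0.11), where 5.44% of all genes were higher at that p-value. With running rat 3 left out, 8 of 8 were positive instead of 4, with a median of 0.44 and *Col1a1* at 0.14. *Scx* was higher in every running rat than in every NC rat, as 3.52% of all genes were. Leukocyte markers had a median of −0.51, with 7 of 8 estimates negative (median −0.33 and again 7 of 8 without running rat 3), from *Lyz2* (−0.87) to *Cd14* (0.17). Values ran from *Lep* (−0.69) to *Plin1* (0.07, and −0.16 without running rat 3) among adipocyte markers and from *Col2a1* (−1.76) to *Acan* (0.15) among cartilage and bone markers. The adipocyte median was −0.20 with 4 of 5 estimates negative, and −0.30 with 5 of 5 without running rat 3. The cartilage and bone median was −0.57 with 5 of 6 negative, and −0.28 with 3 of 6 without that rat. None of the genes of these lists passed the edgeR test, and their part in the values of the mural genes was not tested.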

How the data were processed

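Stranded polyadenylate mRNA libraries of 8 right Achilles tendons, 1 per rat, were compared between 12 h p.r. and NC (n = 4 each), with groups taken from the sample labels. Per the methods and processing notes, the authors used HISAT2 2.1.0 (genome Rnor_6.0) for alignment and featureCounts 1.6.3 for counting on Ensembl genes. Their deposited counts are raw whole numbers. Whether counting used the strand, and how reads of several genes were treated, is not given in the sources used here. The authors deposited FPKM values as well (counts scaled per rat and by gene length), used here for levels between genes. Their own comparison (fold changes and p-values from DESeq2 1.30.1) was not used.

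Counts were filtered with filterByExpr, scaled by TMM, and tested with the quasi-likelihood test of edgeR 4.0.16 (Benjamini-Hochberg over 13937 genes, threshold 0.05). Standard errors came from the F statistic. CPM use TMM-scaled library sizes, and exact permutation tests were 2-sided over all 70 splits on log2(CPM + 0.5). The scripts were tested on simulated data. DESeq2 1.42.0, limma 3.58.1 on log2 FPKM (pseudocounts 1 and 0.1, genes averaging at least 0.1 FPKM), other scalings and filters, the replicate number as a block, marker covariates, and leaving out rats were alternatives. R 4.3.3 and Python 3.11.15 with scipy 1.17.1 were used.

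The members and lists were chosen with earlier results of these data known. Besides the 10 genes, the text names the 3 nearest profiles of each, and in every list the genes with the largest and most negative value, an unadjusted p-value under 0.05, or no overlap between groups. Some of these genes, and the Schwann cell list, are not reported here. Of 126 list symbols, 4 were not used here (*Pecam1*, *Myh2*, *Myh4*, *Mrtfb*). Other genes were named for their role or after their values were seen. Depth was 7350509 to 12951397 counts per rat.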

Additional observations from a re-analysis of the deposited data

Results flagged for a closer look

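Among 44 sets of 4 rats searched for a single rat far from the others (each gene and each list in each group), 2 had one, where chance gives about 1 in 20. The mean log2(CPM + 0.5) of the PDGF and Notch list was 5.27 in NC rat 2, above 5.10 to 5.12 in the other NC rats. The mean of the tenocyte list was 8.28 in 12 h p.r. rat 3, below 9.28 to 9.42 in the other running rats, which is the library with the highest skeletal muscle markers. None of the 10 mural genes had such a rat in either group.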

How the results depend on the processing

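No alternative brought any of the 10 mural genes past the adjusted test, and the smallest adjusted p-value was 0.337 (*Cnn1* without running rat 2, edgeR). Counted at an unadjusted p-value under 0.05, 1 gene was higher and 0 lower with all rats, 4 were higher without running rat 2 (*Acta2*, *Myh11*, *Tagln*, *Cnn1*), 3 without NC rat 4, and 0 were higher without any other single rat, while *Myocd* was lower without running rat 3, NC rat 1, or NC rat 3. Over all genes, in either direction, edgeR had 1443 of 14189 at that p-value without running rat 2 and 879 of 14007 without NC rat 4. It had 1580 of 14236 without running rat 3, 1067 of 14043 without NC rat 1, and 1305 of 14020 without NC rat 3. *Myh11*, *Pdgfrb*, *Notch3*, and *Myocd* kept their sign in all 20 alternatives, *Acta2*, *Tagln*, and *Cnn1* in 19, *Rgs5* in 18, *Lmod1* in 17, and *Mcam* in 14. With the endothelial marker mean as a covariate, the log2 fold changes with the other sign were −0.12 (*Acta2*), −0.009138 (*Tagln*), −0.56 (*Cnn1*), −0.16 (*Mcam*), and −0.21 (*Lmod1*), all unadjusted p-values by edgeR being above 0.05, and the cause was not tested. Without both rats numbered 3, *Mcam* was at −0.15, *Lmod1* at −0.021, and *Myocd* at −1.04, and limma on log2(FPKM + 1) gave −0.27 for *Myocd*. The endothelial covariate, which was partly aligned with group, left *Myh11* at 0.01 and *Myocd* at −1.01. Leaving out 1 rat at a time gave 0.14 to 0.33 for *Acta2*, 0.27 to 0.46 for *Myh11*, 0.27 to 0.44 for *Tagln*, 0.41 to 0.89 for *Cnn1*, −0.019 to 0.18 for *Rgs5*, 0.001266 to 0.18 for *Pdgfrb*, 0.23 to 0.46 for *Notch3*, −0.07 to 0.13 for *Mcam*, −0.026 to 0.16 for *Lmod1*, and −0.88 to −0.49 for *Myocd*. With the replicate number as a block, 0 genes passed (974 at an unadjusted p-value under 0.05, against 1 and 1326 without the block), and the estimates were 0.21 for *Acta2*, 0.32 for *Tagln*, 0.49 for *Cnn1*, and −0.62 for *Myocd*, with no call among the 10 genes changed. Deviations of rats of the same number had correlations of −0.20 to 0.13, with 1 of 4 running rats closest to its own number. With 4 rats per group, such weak correlations cannot decide whether the numbers pair the rats. Over all genes, DESeq2 called 96 where edgeR called 1. Of the 10 genes, *Myocd* had the fewest reads, 298 in all, and the part of depth in its result was not tested.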
